A study of Homo sapiens with 10 samples.

Results

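The comparison described here set the input RNA of A549/DDP cells against that of A549 cells, across the whole transcriptome and outside the Nrf2 targets and the m6A machinery. A549 is a human lung adenocarcinoma cell line, and A549/DDP is a derivative of it that is resistant to cisplatin (DDP), a platinum drug that forms adducts and crosslinks on DNA. The study profiled m6A, a methyl mark on RNA, by immunoprecipitation, and each immunoprecipitated library had an input library of RNA fragments that saw no antibody. Of the 10 libraries of the series, 4 were used: the input libraries numbered 1 and 2 of A549 and those numbered 1 and 2 of A549/DDP. Their samples were chosen by title and by the cell type label, since the cell line field reads A549 in both groups. The other 6, 4 of m6A-enriched RNA and 2 of a further pair of A549 inputs, were left out. Both lines were grown in the same serum-supplemented RPMI medium and were sequenced within 10 passages, and no label names a genetic change or drug in the medium at harvest. Each group is 1 cell line, and no source used here says whether its libraries came from separate cultures, so the p-values measure the spread between 2 libraries of each line, and resistance cannot be told apart from any other difference between the lines.

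Several textbook programmes frame the lists below. Gel-forming mucins are secreted by goblet cells of the airway and gut under the transcription factor SPDEF. YAP and TAZ are coactivators that enter the nucleus of spread, dividing cells and work with TEAD factors at genes such as CCN1 and CCN2. NF-kB dimers drive cytokine genes and the inhibitor of apoptosis BIRC3, while ATF4 drives amino acid supply and stress genes, and heat shock factor drives chaperones. Cisplatin enters cells partly through copper and volume-regulated transporters, and its adducts are removed by nucleotide excision repair.

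The libraries held between 29225501 and 35286514 expected counts. Levels are given as TMM-normalised CPM, counts scaled to the size of the library, which compare a gene between libraries. Levels of different genes are compared as TPM, which are per length. The ratios of liver transcripts to albumin are an exception: they are CPM ratios without length correction, given to compare libraries. A gene was called when the Benjamini-Hochberg adjusted p of edgeR's quasi-likelihood test was under 0.05. Of 16406 tested genes, 14.9% were called, 1124 of them higher in A549/DDP (6.85%) and 1313 lower (8.0%). Changes of at least 4-fold made up 386 of the higher and 391 of the lower calls. All 2437 called genes had libraries that did not overlap between the lines, but so did 62.4% of all tested genes. Leaving out A549/DDP replicate 1 reduced the calls to 1239, and leaving out A549/DDP replicate 2 reduced them to 942. The first principal component (55.7% of the variance) separated the lines, and the next (29.2%) separated the libraries of A549/DDP. Among 11348 genes with a mean of at least 5 CPM, 217 differed over 4-fold between the A549/DDP libraries and 86 between the A549 libraries. Of 6 epithelial markers, the keratin genes KRT7, KRT8 and KRT18 were abundant in every library. CDH1 was at 33.6 to 312 CPM, KRT19 at 0 to 41.1 CPM and EPCAM at only 1.91 to 5.67 CPM. CDKN2A, which A549 cells are known to lack, had at most 11 counts, and MTAP, expected low with it, had 20 to 101. CDKN2B, the neighbour of CDKN2A, had 123 counts in A549/DDP replicate 1 and at most 2 in each other library. A549/DDP replicate 1 also held liver transcripts that replicate 2 did not, which are given beside the secreted proteins. The summed level of 8 fibroblast markers was 11.6 to 33.2 CPM, that of 7 blood markers 0.141 to 6.08 CPM, that of 5 endothelial markers at most 0.641 CPM and that of 5 neuroendocrine markers 4.76 to 13.95 CPM.

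Among abundant secretory and surface genes, MUC5B and CEACAM6 rose in both A549/DDP libraries. MUC5B (11, 1223066 to 1262172 in GRCh38), a gel-forming mucin, measured 65.5 and 68.4 CPM in A549 and 4195 and 3340.2 CPM in A549/DDP. Its log2 fold change was 5.81 ± 0.20 (SE, adjusted p = 0.00096), a 56.3-fold rise. CEACAM6 (19, 41755530 to 41772211), a carcinoembryonic antigen family adhesion protein, measured 9.73 and 11.9 CPM in A549 and 548 and 504 CPM in A549/DDP. The libraries of each line lay close together in both genes and far from those of the other, with a log2 fold change of 5.60 ± 0.21 (SE, adjusted p = 0.00096) for CEACAM6. On the per-length scale MUC5B went from 5.32 and 6.34 TPM to 384.6 and 385.9 TPM, above the 326.9 and 303.9 TPM of CEACAM6 in A549/DDP. MUC5B overlaps the antisense gene MUC5B-AS1, and the strand setting of the counting is not given in the sources used here.

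The largest rises were in genes with few or no counts in A549. SPDEF, the transcription factor of goblet cells, had no count in either A549 library and 34.4 and 37.8 CPM in A549/DDP. Against a floor of 3 counts over the libraries of A549 together, SPDEF was at least 826-fold higher. NALF1, a subunit of a sodium leak channel, was at least 624-fold higher, and the neuropeptide Y receptor NPY1R was at least 263-fold higher, both from 0 counts. VIL1, the villin that bundles actin in microvilli, had 1 count in each A549 library and 17.6 and 19.1 CPM in A549/DDP, a ratio of 629.7 (95% counting interval 174 to 5206). CADPS2, a priming factor of vesicle release, had 1 count in A549 and a ratio of 830.4 (95% counting interval 149 to 32841). The coactivator of mitochondrial genes PPARGC1A measured 0.334 and 0.0846 CPM in A549 and 56.2 and 88.8 CPM in A549/DDP. Its log2 fold change was 8.43 ± 0.62 (SE, adjusted p = 0.0024), followed by those of the protocadherin PCDH17 (8.24 ± 0.97), the ubiquitin ligase TRIM31 (8.11 ± 0.82), the brush border myosin MYO1A (7.91 ± 1.05), the cystatin CST1 (7.45 ± 0.44) and the neural adhesion molecule NCAM1 (6.23 ± 0.58). Among genes with a mean of at least 50 TPM, USH1C, a scaffold of microvillus links, rose from 2.22 and 5.50 to 205 and 179 CPM, and the tight junction protein CLDN2 from 8.09 and 11.7 to 277 and 265 CPM. The tetraspanin-like TM4SF20, the ferritin receptor SCARA5, the ferroxidase CP and the calcium-binding S100P rose by 4.74 to 5.62 on the log2 scale. C10orf90 and UBXN10 also went from 0 counts, and C10orf90 lost its call without A549/DDP replicate 2 (adjusted p = 0.063). BCKDHA and FAM83A lost theirs without A549/DDP replicate 1 (adjusted p = 0.058 and 0.093) and without replicate 2 (adjusted p = 0.086 and 0.061).

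**Figure D1:**
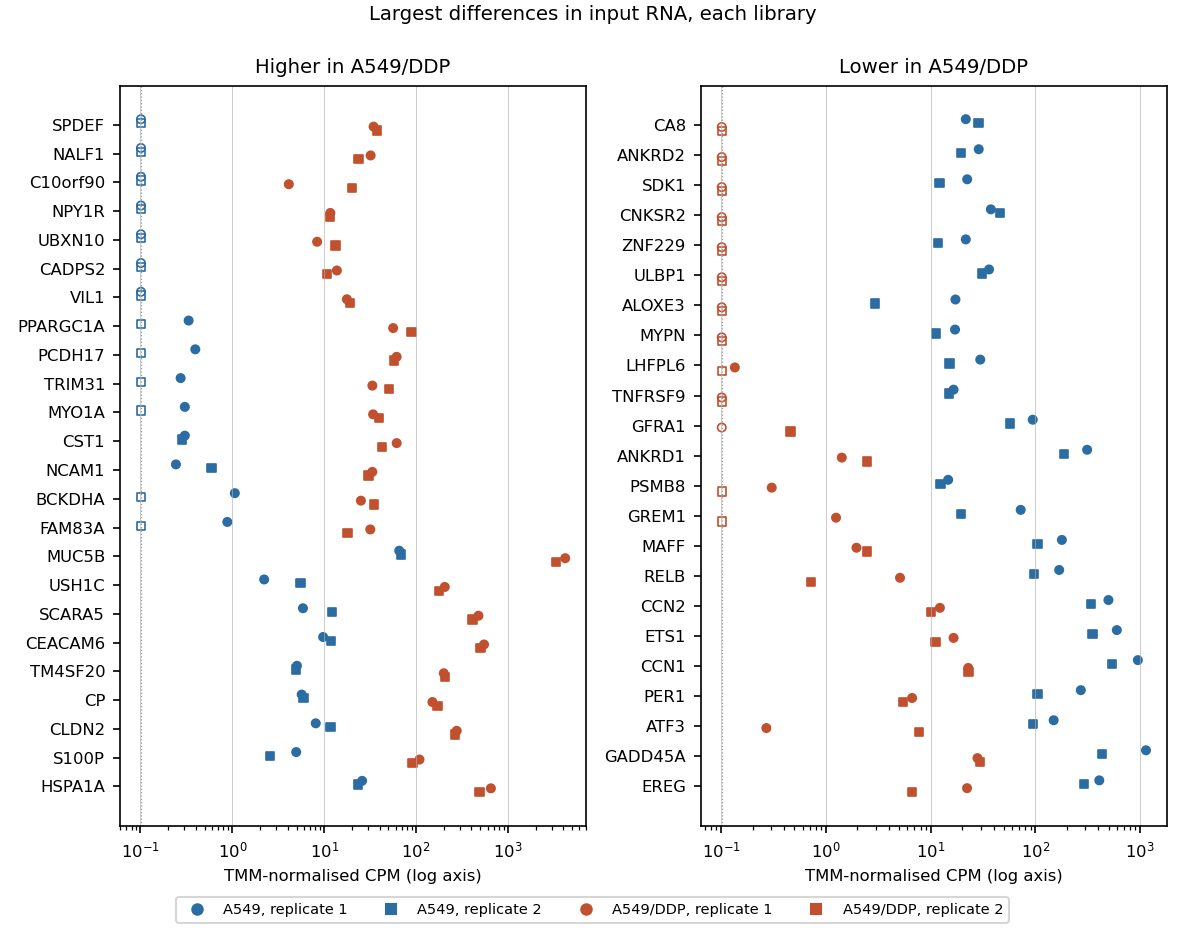
TMM-normalised CPM (log axis) of the protein-coding genes with the largest called differences, and of those with a mean of at least 50 TPM, in each of the 4 libraries, ordered by the size of the fitted change. Blue marks are A549 and red marks A549/DDP, circles are replicate 1 and squares replicate 2, and open marks at the dotted line stand for libraries at or below the level of 3 counts (0.101 CPM). MUC5B lies at 65.5 and 68.4 CPM in A549 and at 4195 and 3340 CPM in A549/DDP.

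The largest falls were in genes with few or no counts in A549/DDP, and the abundant genes among them included targets of YAP/TAZ and NF-kB. The carbonic anhydrase relative CA8 measured 21.6 and 28.7 CPM in A549 and had no count in A549/DDP, at least 544-fold lower against the same floor. ANKRD2, a muscle ankyrin repeat protein, and the adhesion molecule SDK1 were also at 0 counts in A549/DDP and were at least 515-fold and at least 366-fold lower. CNKSR2, a scaffold of RAS signalling, had 2869 counts in A549 and 2 in A549/DDP, a ratio of 1354 (95% counting interval 375 to 11188). ULBP1, a ligand of the NKG2D receptor of natural killer cells, had 2284 against 3 counts, a ratio of 719 (95% counting interval 246 to 3488). TNFRSF9, a costimulatory receptor, had 1073 against 3 counts, and the GDNF coreceptor GFRA1 measured 94.3 and 57.4 CPM in A549 and 0.0675 and 0.459 CPM in A549/DDP. LHFPL6, MYPN, the BMP antagonist GREM1 and ZNF229 fell too, and each kept its call with any 1 library left out. ALOXE3 lost its call without A549 replicate 1 (adjusted p = 0.28) and without A549/DDP replicate 2 (adjusted p = 0.057), and PSMB8, an immunoproteasome subunit, without A549 replicate 1 (adjusted p = 0.061). Among abundant genes, the transcription factor ETS1 measured 599 and 349.7 CPM in A549 and 16.5 and 11.1 CPM in A549/DDP. MAFF, a small MAF factor, went from 179 and 105 to 1.96 and 2.47 CPM, the clock gene PER1 fell by 4.96 on the log2 scale (SE 0.51) and the growth arrest gene GADD45A by 4.76 (SE 0.49).

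Across 42 gene lists, those with the largest shares of members called in 1 direction included the YAP/TAZ targets, the NF-kB and inhibitor of apoptosis genes and the ATF4 response among the falls, and mucins, chaperones, glycolysis and liver-type secreted proteins among the rises. Of all tested genes, 6.85% were called higher and 8.0% lower, with a median log2 fold change of -0.0016. The lists were chosen with earlier results of these data known. Their shares are therefore a description, and their distance from the shares of all genes is not a test. No list median moved when genes at 0 counts in a line were set to their bound. Some genes are in more than 1 list, such as SESN2, TGFB2 and CALR, and count in each, so the lists are not independent.

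Most YAP/TAZ targets fell. All 23 listed genes were tested, 16 were called lower and none higher, with a median log2 fold change of -2.43, and 13 to 16 members were called lower when any 1 library was left out. CCN2 (6, 131948176 to 131951372), a secreted matricellular growth factor, measured 498 and 339 CPM in A549 and 12.2 and 10.1 CPM in A549/DDP. Its log2 fold change was -5.23 ± 0.28 (SE, adjusted p = 0.0016), and the A549/DDP libraries were alike while both A549 libraries were far above. CCN1, its relative, measured 950.2 and 536 CPM in A549 and 22.8 and 23.0 CPM in A549/DDP, with a log2 fold change of -5.02 ± 0.33 (SE, adjusted p = 0.0019). ANKRD1, a nuclear ankyrin repeat protein, measured 312 and 189 CPM in A549 and 1.42 and 2.47 CPM in A549/DDP. The receptor kinase AXL (1152 and 749 against 80.1 and 75.9 CPM), the angiomotin AMOTL2 (557 and 529 against 59.4 and 53.9 CPM), the Hippo kinase LATS2 and the ligand TGFB2 were also called lower. The targets F3, NT5E and IGFBP3 had log2 fold changes of 0.05, 0.59 and 0.60 with no call. Promoters of the 2 strongest of these genes that have an entry in RefSeq (GRCh38.p14, 250 bases before to 50 after the start) are shown with the core letters of TEAD sites in capitals. They lie on the minus strand at chr6:131951323-131951622 and chr10:90921038-90921337 and hold 3 and 2 matches.
CCN2: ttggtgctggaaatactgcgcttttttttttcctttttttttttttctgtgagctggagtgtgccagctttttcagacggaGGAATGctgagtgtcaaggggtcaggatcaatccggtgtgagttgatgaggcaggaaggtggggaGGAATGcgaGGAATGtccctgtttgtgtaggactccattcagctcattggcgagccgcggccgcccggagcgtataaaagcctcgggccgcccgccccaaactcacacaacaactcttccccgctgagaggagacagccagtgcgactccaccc
ANKRD1: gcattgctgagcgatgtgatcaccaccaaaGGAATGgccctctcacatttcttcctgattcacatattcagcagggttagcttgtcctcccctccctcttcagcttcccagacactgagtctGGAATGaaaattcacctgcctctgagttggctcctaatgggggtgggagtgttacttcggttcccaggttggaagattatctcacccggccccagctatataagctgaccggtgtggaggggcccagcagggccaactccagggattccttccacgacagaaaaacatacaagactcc
The letters GGAATG, on either strand, were in the promoter windows of 9 of the 11 called targets with an entry, 1 of the 6 tested but not called and 16.7% of 27305 genes. A gene counted once if any of its windows held the letters, and a match is a description of the window only.

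Most genes of the NF-kB list fell as well. Of 26 tested members, 18 were called lower and none higher, the median log2 fold change was -2.46, and 14 to 18 members were called lower when 1 library was left out. BIRC3 (11, 102317484 to 102339403), a ubiquitin ligase that inhibits apoptosis, measured 315 and 256 CPM in A549 and 6.44 and 7.48 CPM in A549/DDP, so that neither line overlapped the other. This was a 40.9-fold fall, with a log2 fold change of -5.35 ± 0.23 (SE, adjusted p = 0.0014). The other inhibitors of apoptosis in the list moved less, BIRC2 by -1.43 and XIAP by -0.82. Of the subunits, NFKB2 measured 608 and 433 CPM in A549 and 27.1 and 38.9 CPM in A549/DDP and RELB 169 and 96.3 CPM in A549 and 5.09 and 0.717 CPM in A549/DDP. NFKB1 and REL were lower by 1.82 and 1.78 on the log2 scale, and RELA, the main activating subunit, had a log2 fold change of -0.18 with no call. Among the cytokines, CXCL8 measured 41.0 and 32.0 CPM in A549 and 2.29 and 1.09 CPM in A549/DDP, and CCL2 fell from 8.81 and 8.63 to 0.101 and 0.0287 CPM. The feedback inhibitors NFKBIA, NFKBIE, TNFAIP3 and TNIP1 were all called lower. IL6 was at 3.40 and 0.79 CPM in A549 and at 0 in A549/DDP without a call (adjusted p = 0.078). BIRC3 is shown for the letters GGAAANNCC, part of NF-kB sites, in its plus-strand promoter window at chr11:102317234-102317533, with the match in capitals.
BIRC3: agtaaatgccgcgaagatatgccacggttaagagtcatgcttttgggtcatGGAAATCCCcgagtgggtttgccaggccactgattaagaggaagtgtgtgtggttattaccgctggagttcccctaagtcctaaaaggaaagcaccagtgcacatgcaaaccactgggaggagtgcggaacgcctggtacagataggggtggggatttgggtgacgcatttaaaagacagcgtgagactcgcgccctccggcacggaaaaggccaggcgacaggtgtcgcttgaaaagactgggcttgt
These letters were in the windows of 12 of the 14 called members with an entry, 5 of the 8 tested but not called and 7.61% of all genes.

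Genes downstream of growth factor receptors and of amino acid stress were lower as well. In the EGF receptor family and its ligands, 5 of 13 tested members were called lower and 1 higher, and the number lower was 5 with any 1 library left out. EGFR measured 1733 and 1307 CPM in A549 and 250.0 and 267 CPM in A549/DDP, whereas ERBB3, the family member without an active kinase, measured 3.04 and 7.93 CPM in A549 and 114 and 96.7 CPM in A549/DDP. EREG and AREG, both ligands of EGFR, had log2 fold changes of -4.59 ± 0.60 and -2.81 ± 0.21. Of 26 RAS-ERK feedback and immediate early genes, 12 were called lower and none higher (median -1.41). FOSL1, an AP-1 subunit, fell from 535 and 176 to 21.6 and 12.6 CPM, JUN from 461 and 519.6 to 56.3 and 66.3 CPM, and MYC from 895 and 549.9 to 188 and 156 CPM, while FOS had a log2 fold change of 1.98 with no call. In the ATF4 response, 14 of 26 tested members were called lower and none higher (median -1.38), and 10 to 17 with 1 library left out. ATF4 itself measured 736 and 490.0 CPM in A549 and 215 and 191 CPM in A549/DDP, and DDIT3, the CHOP factor, fell from 178 and 98.7 to 7.52 and 8.34 CPM. The secreted STC2, the kinase-like TRIB3 and asparagine synthetase ASNS fell by 4.29, 2.32 and 2.63 on the log2 scale. ATF3 measured 149 and 94.8 CPM in A549 and 0.270 and 7.77 CPM in A549/DDP, a gap of more than 10-fold between the A549/DDP libraries.

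Apoptosis and p53 genes gave fewer calls. Among 25 p53 targets, 6 were called lower (PMAIP1, SESN2, TNFRSF10B, AEN, GDF15 and BTG2) and none higher, with a median of -0.71; the number was 3 without A549/DDP replicate 1, 1 without A549/DDP replicate 2 and 13 without A549 replicate 2. CDKN1A, an inhibitor of cyclin-dependent kinases, had a log2 fold change of -0.61 without a call (adjusted p = 0.22). In the BCL2 family, 3 of 15 were called lower and 1 higher, or 2 and 1 lower without A549/DDP replicate 1 or 2. BCL2L11, the pro-apoptotic BIM, measured 7.96 and 4.51 CPM in A549 and 37.3 and 41.8 CPM in A549/DDP. BCL2A1, an anti-apoptotic NF-kB target, had 435 counts in A549 and none in A549/DDP, at least 137-fold lower, but lost its call without A549 replicate 2 (adjusted p = 0.082). The anti-apoptotic BCL2L1 and MCL1 fell by 1.10 and 1.07 on the log2 scale and lost their calls without A549/DDP replicate 1 (adjusted p = 0.07 and 0.16) or replicate 2 (adjusted p = 0.095 and 0.15).

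Some mucin and goblet cell genes and some foregut, lung and gut lineage factors rose. Of 14 tested mucin and goblet cell genes, 6 were called higher and none lower (median 1.81), and 5 or 6 with any 1 library left out. MUC5AC, the other gel-forming airway mucin, measured 217 and 278 CPM in A549 and 4069 and 3249 CPM in A549/DDP, 361.6 and 290.7 TPM in A549/DDP beside the 384.6 and 385.9 TPM of MUC5B. AGR2, a disulfide isomerase needed for mucin folding, rose from 66.7 and 32.5 to 374 and 309.9 CPM, and the membrane mucin MUC13 from 23.8 and 14.6 to 117 and 99.4 CPM. TFF1, a trefoil peptide, went from 0 to 2.70 and 4.59 CPM and lost its call under a replicate block and without either A549 library or A549/DDP replicate 2 (adjusted p up to 0.093). In the CEACAM family CEACAM6 was the only one of 5 called, while CEACAM5 measured 3.13 and 7.70 CPM in A549 and 28.3 and 15.8 CPM in A549/DDP with an adjusted p of 0.072. The lineage factors EHF (1.85 and 5.42 against 56.6 and 63.7 CPM), HNF4A (21.4 and 30.5 against 176 and 174 CPM), FOXA1 and ELF3 were among the 5 called higher of 24 tested. GATA6 was called lower and lost its call without either A549 library (adjusted p up to 0.058). Without A549/DDP replicate 1 or 2, the higher calls of this list were 2 and 3. Of 16 Wnt target and feedback genes 5 were called higher and 2 lower, but 3 higher without A549/DDP replicate 2, 8 without A549 replicate 2 and none lower without either A549/DDP library. AXIN2, the negative feedback scaffold of the pathway, measured 1.25 and 3.86 CPM in A549 and 73.1 and 59.4 CPM in A549/DDP, and the receptor-removing ligases RNF43 and ZNRF3 rose by 3.16 and 2.00 on the log2 scale. The epithelial junction genes were split, with 4 of 24 higher and 4 lower, or 2 and 1 higher without A549/DDP replicate 1 or 2. CDH1, the epithelial cadherin, rose from 33.6 and 83.4 to 312 and 249 CPM and CLDN1 fell from 748 and 404 to 27.5 and 35.5 CPM. The call of CDH1 was lost without A549/DDP replicate 1 (adjusted p = 0.063) or replicate 2 (adjusted p = 0.053).

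Liver-type secreted proteins included a group that rose in both A549/DDP libraries. Another group was at 2 CPM or more in A549/DDP replicate 1 and at 1 CPM or less in replicate 2. Other members were in neither group, such as SERPINA1 (12.2 and 4.06 CPM in A549 and 57.4 and 3.61 CPM in A549/DDP). Of 36 tested members 12 were called higher, among them CP, VTN, F5, ITIH2, LCN2, FGA, FGB, FGG, CFB, APOE and C3. The median log2 fold change of 2.01 rested on A549/DDP replicate 1, as it was -0.49 without that library, with 2 members then called lower, and 0.47 with a replicate block. As in every gene called higher, A549/DDP replicate 2 was above both A549 libraries in these 12, so this adds nothing to the calls. Its level was 4.30 to 34.9 times the A549 mean. FGA, a fibrinogen chain, measured 32.1 and 33.0 CPM in A549 and 349.8 and 304 CPM in A549/DDP, and C3, the central complement protein, 107 and 132 CPM in A549 and 575 and 542 CPM in A549/DDP. Another 16 members were at 2 CPM or more in A549/DDP replicate 1 and at 1 CPM or less in A549/DDP replicate 2, and none of them was called. Albumin (ALB) measured 25.1 and 7.67 CPM in A549 and 129.6 and 0.717 CPM in A549/DDP, and haptoglobin (HP) 15.3 and 4.63 CPM in A549 and 70.8 and 0.0287 CPM in A549/DDP. The summed level of these 16 was 73.6 and 23.3 CPM in A549 and 363 and 0.774 CPM in A549/DDP. As CPM ratios without length correction, HP stood at 0.608, 0.603 and 0.547 of ALB in A549 replicates 1 and 2 and A549/DDP replicate 1. APOA1 stood at 0.204, 0.224 and 0.216. Other ratios varied more across those libraries. APOA2 stood at 0.180 to 0.234, TF at 0.136 to 0.178 and APOB at 0.121 to 0.156. TTR stood at 0.0825 to 0.121, AHSG at 0.0630 to 0.0882 and HPX at 0.0509 to 0.180. FGA stood at 1.28, 4.30 and 2.70 times ALB in those libraries and at 424 times in A549/DDP replicate 2. Of a list of 15 liver markers, compiled after these values were seen, 11 were at 0 counts in A549/DDP replicate 2 and none in the other libraries. The part of this library difference in the called genes was not tested beyond leaving out each library, which gave 9 calls without A549/DDP replicate 1 and 10 without replicate 2. Whether the reads of the 16 members came from these cells or were carried over from another library was not tested. In such bulk libraries, fewer cells of a type and less RNA per cell cannot be told apart.

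Several cytosolic chaperones rose. Of 24 heat shock genes, 11 were called higher and 1 lower (median 0.61), and the 11 became 7 without A549/DDP replicate 1 and 6 without replicate 2. HSPA8, the constitutive HSP70, measured 83.4 and 145 CPM in A549 and 2610.3 and 2414 CPM in A549/DDP, with a log2 fold change of 4.46 ± 0.31 (SE, adjusted p = 0.0023). HSPA1A and HSPA1B, the inducible HSP70 genes, are nearly identical, so that reads can be split between them. Their sum was 35.8 and 40.9 CPM in A549 and 916 and 742 CPM in A549/DDP. HSP90AA1 rose from 560.4 and 1024 to 2941 and 3295 CPM, and the cochaperones DNAJA1 and FKBP4 rose by 1.83 and 2.10 on the log2 scale. HSF1, the factor that induces these genes, had a log2 fold change of 0.01. HSPA8 is shown for the heat shock element letters TTCNNGAA, in capitals, in its minus-strand window at chr11:123062087-123062386.
HSPA8: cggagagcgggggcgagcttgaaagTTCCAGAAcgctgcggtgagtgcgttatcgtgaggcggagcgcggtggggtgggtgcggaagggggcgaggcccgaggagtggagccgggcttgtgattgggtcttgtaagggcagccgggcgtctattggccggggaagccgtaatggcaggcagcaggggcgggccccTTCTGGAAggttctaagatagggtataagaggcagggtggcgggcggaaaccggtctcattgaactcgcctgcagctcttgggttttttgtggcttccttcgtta
The letters were in the windows of 5 of 10 called chaperone genes with an entry, 5 of 11 not called higher and 9.46% of all genes. The ATF4 element letters TGATGNAA were in 4 of 13 called and 2 of 9 other tested ATF4 response genes, and in 4.46% of all genes.

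Endoplasmic reticulum chaperones, cholesterol synthesis and energy metabolism gave smaller rises. Of 23 chaperone and unfolded protein response genes of the endoplasmic reticulum 6 were called higher and 1 lower. P4HB, a disulfide isomerase, rose from 622 and 578 to 1740.0 and 1523 CPM, while ERN1, the IRE1 sensor, fell from 108 and 137 to 30.6 and 41.8 CPM. Of 27 cholesterol genes 7 were called higher and none lower (median 0.67). INSIG1, a sterol-regulated protein of the endoplasmic reticulum that restrains the pathway, measured 9.57 and 8.12 CPM in A549 and 29.7 and 34.7 CPM in A549/DDP and lost its call without A549/DDP replicate 2 (adjusted p = 0.065). Glycolysis had 9 of 21 called higher and none lower (median 0.58), among them GPI (415 and 551 against 1436 and 1352 CPM), HK1 and PGK1. The uptake transporter SLC2A1 and LDHA had log2 fold changes of 0.10 and 0.16 without a call. Nuclear-encoded respiratory chain subunits had 9 of 79 higher and none lower (median 0.45), with 68 of the 79 fold changes above 0. COX5B of complex IV rose from 49.5 and 40.7 to 115 and 106 CPM. These counts rested on both A549/DDP libraries: without A549/DDP replicate 1 or 2 they were 1 and 1 for the endoplasmic reticulum list, 3 and 1 for cholesterol, 2 and 2 for glycolysis and 0 and 0 for the respiratory chain. Cytosolic ribosomal proteins (3 of 79 higher, but 27 without A549 replicate 1), proteasome subunits (2 higher and 2 lower of 33, but 8 lower without A549 replicate 2 and 0 called without either A549/DDP library) and the 13 mitochondrially encoded genes (0 called, median 0.01) lay at or below the shares of all genes.

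The cell cycle list held calls in both directions. Of 36 tested S phase and mitosis genes 10 were called higher and 12 lower. All 10 higher calls were of G1/S and DNA replication genes (CCNE1, PCNA, CDT1, FEN1, CDC6, GINS1, MCM7, MCM2, MCM5 and RRM2), and the 12 lower calls were of mitotic genes and of MKI67 and TOP2A, a grouping made after the calls were seen. The other 14 members were not called, among them the replication genes MCM4 (log2 fold change 1.62) and RRM1 (-0.49). PCNA, the sliding clamp of replication, measured 121 and 116 CPM in A549 and 378 and 405 CPM in A549/DDP. TOP2A, the topoisomerase that resolves sister DNA, measured 983 and 1149 CPM in A549 and 259 and 292 CPM in A549/DDP, and the kinetochore motor CENPE 97.2 and 68.4 CPM in A549 and 14.7 and 17.1 CPM in A549/DDP. The lower calls became 4 and 5 and the higher calls 2 and 1 without A549/DDP replicate 1 or 2.

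DNA repair and platinum transport genes gave few calls. Nucleotide excision repair had 1 of 28 tested members called higher and 3 lower (median -0.51). The number lower was 1 and 0 without A549/DDP replicate 1 or 2, 7 without A549 replicate 2 and 8 with a replicate block. ERCC4, the XPF nuclease subunit, fell from 40.6 and 37.9 to 14.2 and 10.1 CPM and its partner ERCC1 had a log2 fold change of -0.27 with no call. The call of ERCC4 was lost without A549/DDP replicate 2 (adjusted p = 0.073). DDB1, a damage recognition subunit, rose from 247 and 306 to 577 and 545 CPM, with no call without A549/DDP replicate 1 or 2 (adjusted p = 0.098 and 0.085). Crosslink repair had 2 of 32 lower, the translesion polymerases POLK and REV3L. Both lost their calls without A549 replicate 1 or A549/DDP replicate 2 (adjusted p up to 0.086 and 0.15), REV3L also without A549/DDP replicate 1 (adjusted p = 0.091). Mismatch repair had 0 of 8 called, but 3 higher without A549 replicate 2. Of 19 platinum and copper transporters 3 were called higher, the organic cation transporter SLC22A3 (45.5 and 23.8 against 132 and 111 CPM), the exporter ABCC5 and the copper importer SLC31A1, and 1 lower, the anion channel subunit LRRC8D (63.5 and 119 against 19.5 and 31.2 CPM). None of the 4 calls held without A549/DDP replicate 1 or without replicate 2. The copper exporter ATP7A had a log2 fold change of 0.10 ± 0.29, and the 3 tested metallothioneins were not called.

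Matrix and signalling genes were mixed. In the TGF-beta list 5 of 27 were called lower and 3 higher, with the ligand TGFB2 at 269 and 224 CPM in A549 and 39.9 and 30.4 CPM in A549/DDP and TGFBI, a matrix protein, at 764 and 836 CPM in A549 and 2681 and 2561 CPM in A549/DDP. Collagen and laminin chains had 9 of 43 lower and 3 higher. The basement membrane chains COL4A1 and COL4A2 fell by 3.31 and 2.22 on the log2 scale, while COL4A4, COL4A5 and COL4A6 were called higher. Integrins had 4 of 20 lower and none higher (1 without either A549/DDP library), and mesenchymal genes 3 of 22 lower and none higher. ZEB2, a repressor of epithelial genes, fell from 53.2 and 25.7 to 1.69 and 1.38 CPM, and VIM had a log2 fold change of 0.27 with no call. Of 13 keratins, KRT8 and KRT18 were called higher and KRT7 and KRT80 lower. KRT8 measured 1452 and 3094 CPM in A549 and 6862 and 6648 CPM in A549/DDP and lost its call without either A549/DDP library (adjusted p up to 0.088), as KRT18 did (adjusted p up to 0.075). KRT7 fell from 4949 and 2999 to 1299 and 1213 CPM, with adjusted p = 0.055 and 0.069 without A549/DDP replicate 1 or 2. The hypoxia list had 3 of 28 higher and 6 lower. CA12, a surface carbonic anhydrase, rose from 131 and 352 to 1739 and 1842 CPM, whereas ADM and NDRG1 fell by 3.37 and 2.41 on the log2 scale. Of 34 interferon-stimulated genes 4 were called higher and 1 lower, led by OAS1 (1.82 and 3.33 against 41.6 and 18.4 CPM). HLA class I presentation had 2 of 17 higher and 2 lower. The higher calls were CALR and PDIA3 (log2 fold changes of 1.23 and 0.69), both also in the endoplasmic reticulum list. The lower calls were TAP1 and PSMB8 (-1.67 and -6.49). Without A549/DDP replicate 1 or 2, the lower calls were 4 and 2 in the TGF-beta list, 6 and 3 among collagens and laminins (with 0 and 1 higher), 1 and 1 among mesenchymal genes and 2 and 2 in the hypoxia list, and the higher calls were 1 and 2 among interferon-stimulated genes and 0 and 0 in HLA class I presentation.

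The remaining lists gave few calls. HOX genes had 2 of 31 higher and 2 lower: HOXA5 rose from 0.517 and 0.536 to 11.3 and 9.72 CPM and HOXB9 fell from 37.5 and 57.4 to 5.84 and 5.02 CPM. S100 proteins had 1 of 12 higher (S100P), clustered protocadherins 1 of 24 higher (PCDHA4, whose exons are shared along its cluster and whose call was lost without A549 replicate 1 or either A549/DDP library, with adjusted p up to 0.058), cancer-testis antigens 1 higher and 1 lower of 5, and replication-dependent histones 1 of 18 higher. Numbered zinc finger genes had 7 of 407 higher and 30 lower (median -0.50, and 13 to 33 lower with 1 library left out), with 137 of the 407 fold changes above 0. The lower share of that list was near the 8.0% of all genes and its higher share below the 6.85%.

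Long noncoding RNAs were called less often than protein-coding genes: 15 of 1002 higher and 26 lower, beside 1064 and 1248 of 13170 protein-coding genes, a difference that was not tested. Of 24 abundant long noncoding RNAs 9 were called lower and none higher (median -0.62), or 4 and 2 lower without A549/DDP replicate 1 or 2. MEG3, an imprinted RNA, measured 62.8 and 51.5 CPM in A549 and 1.11 and 0 CPM in A549/DDP, and CYTOR and MIR4435-2HG, near-identical paralogs between which reads can be split, fell by 3.31 and 3.19 on the log2 scale. The snoRNA host SNHG1 fell from 355 and 272 to 89.8 and 72.4 CPM. THRIL and LINC02418 had no count in A549 and were at least 348-fold and at least 323-fold higher, and THRIL overlaps BRI3BP. SLFNL1-AS1 and BCYRN1 were lower by 4.39 and 3.25 on the log2 scale, and LINC02593, LCIIAR and HOXA-AS2 were higher by 2.64 to 4.31. HOXA-AS2 lost its call without A549 replicate 2 or either A549/DDP library (adjusted p up to 0.079), LINC02593 without A549/DDP replicate 2 (adjusted p = 0.051), and CYTOR without A549/DDP replicate 2 (adjusted p = 0.058).

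Called genes were unevenly placed and sized, as a description with no test. Over all tested genes, with or without a known position, 6.85% were called higher and 8.0% lower. Chromosome 17 had 48 higher and 125 lower calls among 919 tested genes (5.22% and 13.6%). Chromosome 18 had 7 and 25 among 198 (3.54% and 12.6%). Chromosome 19 had 93 and 48 among 1020 (9.12% and 4.71%). Chromosome 20 had 44 and 23 among 383 (11.5% and 6.01%), and chromosome 22 had 36 and 18 among 360 (10% and 5%). Of 292 bins of 10 Mb with at least 10 tested genes, the lowest median log2 fold change was -0.96, on chromosome 12 from 90 to 100 Mb, where 0 of 34 genes were called higher and 10 lower. The highest was 0.65, in the bin of chromosome 22 that starts at 50 Mb. Protein-coding genes with a longer genomic span were called lower more often. Of all tested protein-coding genes, 8.08% were called higher and 9.48% lower. In the fifth with the shortest span (median 5.44 kb) 9.46% were called higher and 4.52% lower, and in the fifth with the longest (median 162 kb) 5.81% and 15.3%. The median span was 23.9 kb for genes called higher, 56.1 kb for those called lower and 29.9 kb for the others. The part of span in the results for single genes and lists was not tested.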

How the data were processed

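Input libraries were made by the authors from poly(A) RNA that was isolated from total RNA and fragmented, with a strand-specific dUTP protocol and sequenced as paired ends. Per the labels, STAR and RSEM were used with hg38. Versions, annotation release and the strand setting of counting are not given in the sources used here. The deposited files hold expected counts and TPM per gene, both estimated by the authors with RSEM, and the expected counts were rounded to whole numbers here.

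Symbols were matched by Ensembl identifier for 56993 of 58037 rows, and positions and promoters come from RefSeq (GRCh38.p14). Genes passing filterByExpr were fitted with TMM factors in edgeR 4.0.16 (R 4.3.3), with no covariate, and p-values were adjusted by the Benjamini-Hochberg method. The fit was run on simulated data with a smaller spread between libraries than here. That run therefore does not measure the error rates of the calls reported here. DESeq2 1.42.0, limma 3.58.1 on log2(TPM + 1), other filters and scalings, a replicate block and leaving out each library were alternatives. A level of 3 counts is 0.0846 to 0.101 CPM in these libraries, and intervals cover counting error only. Genes were named by rule: the markers MUC5B, CEACAM6, CCN2 and BIRC3, the 15 largest called rises and falls among protein-coding genes with a mean of at least 5 CPM and no overlap between lines, 10 of each among those of at least 50 TPM, 5 of each among long noncoding RNAs, and up to 4 called members of each list. Other list members were named to show a pathway and were chosen after their values were seen. Nrf2 targets, m6A machinery, readthroughs and pseudogenes were left out. Some genes that the rule names are not reported here. The members and lists were chosen with earlier results of these data known.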

Additional observations from a re-analysis of the deposited data

How the results depend on the processing

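The number of called genes depended on the filter, the tool and the libraries. It was 2437 (1124 higher, 1313 lower) as reported, 4234 (1987, 2247) with DESeq2, 4010 (1836, 2174) with no filter beyond 1 count and 3614 (1746, 1868) with at least 10 counts in every library. With limma on log2(TPM + 1) it was 1492 (665, 827), on log2(TPM + 0.1) 1177 (510, 667), and without a filter 0 (0 and 0), where 4519 genes had an unadjusted p under 0.05. Leaving out 1 library gave 942 to 2879 genes (397 to 1365 higher and 545 to 1514 lower). The cause was not tested, apart from the smaller number of genes or samples in some of these fits. Upper-quartile, RLE and mitochondria-free TMM scaling gave 2535, 2448 and 2439. The deviations of same-numbered libraries correlated at 0.026 across the tested genes, which cannot show whether some genes share an effect of the replicate number. Whether the replicate numbers pair the samples was not tested further. A fit with the replicate block called 3536 (1633, 1903), of which 2418 were among the 2437. No called gene changed direction in any edgeR or DESeq2 fit that held it, and 4 did so in each limma fit. None of the 176 genes named by rule changed direction, and of them 49 lost the call without A549/DDP replicate 1, 68 without A549/DDP replicate 2, 22 without A549 replicate 1 and 10 without A549 replicate 2. MUC5B, CEACAM6, CCN2 and BIRC3 kept the call in each fit except limma without a filter. With 2 libraries of each line, the biological coefficient of variation was 0.656. C10orf90, THRIL and others that A549 lacks had no value in the fit that asked for 10 counts in every library.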

Other observations

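The brush border genes gave a group that no list held, put together after the values of VIL1, MYO1A and USH1C were seen. Of 11 genes of the microvillus core and its intermicrovillar links, 10 were tested, and 5 were called higher and none lower: VIL1, MYO1A, USH1C, ANKS4B and EPS8L3. The count includes VIL1, MYO1A and USH1C, which prompted the group. It can therefore not be set against the 6.85% of all tested genes called higher. EPS8L3, an actin capping relative, measured 0.456 and 3.27 CPM in A549 and 60.1 and 49.8 CPM in A549/DDP. ANKS4B, a partner of USH1C, measured 1.52 and 0 CPM in A549 and 34.2 and 42.2 CPM in A549/DDP. The myosin MYO7B measured 0 and 0.141 CPM in A549 and 4.25 and 8.08 CPM in A549/DDP (edgeR adjusted p = 0.062). CDHR2 and CDHR5 had log2 fold changes of 1.55 and 3.13 without a call (edgeR adjusted p = 0.73 and 0.27). EZR and PLS1, which are also used outside the brush border, had log2 fold changes of -0.62 and -0.32 without a call. ESPN, the untested member, had at most 15 counts.

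The libraries of A549/DDP differed over 4-fold in 154 protein-coding genes with a mean of at least 5 CPM, 96 of them higher in replicate 1 and 58 in replicate 2. Of the 154, 7 were called between the lines, beside 14.9% of all tested genes. The gap within A549/DDP by which they were selected itself makes a call less likely. KRT19 was at 7.19 CPM in A549/DDP replicate 1 and at 0 in replicate 2, beside 29.4 and 41.1 CPM in A549. CXCR5 was at 55.9 CPM in A549/DDP replicate 1, at 3.27 CPM in A549 replicate 2 and at 0 in both other libraries. CENPL and PYURF were higher in A549/DDP replicate 2, at 11.8 against 0.101 CPM and at 34.6 against 1.35 CPM.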
